A study of Mus musculus with 12 samples.

Results

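The solute carrier (Slc) genes expressed in liver outside the mitochondrial Slc25 family were examined in Apoe knockout mouse liver after delivery of Rspo2. Members were chosen by biotype, symbol and level: protein-coding genes whose symbol is Slc followed by a digit, without Slc25, and with a mean of at least 1 FPKM over all 12 libraries. FPKM counts read fragments relative to the length of the gene and the size of the library, so levels of different genes can be compared. Of 324 such protein-coding genes, 157 reached that mean. Slc1a2, Slc2a2, Slc4a1, Slc10a1, Slc13a3, Slc22a3, Slc27a2, Slc27a5 and Slc40a1 were set aside by the rule, and 8 of these 9 had passed the level. That left 149 members in 40 families, out of 54532 genes in the deposited table. The level that chose the members was averaged over both groups, so the levels are a description. Level and symbol did not use the difference between groups, but members were chosen with earlier results of these data known. Of the 9 set aside by name, 2 were called higher in the fit described below.

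The livers came from mice with an Apoe knockout, the allele that both groups share, and the data are bulk RNA sequencing of messenger RNA. In the control group, labelled Control (numbers 1 to 6), the mice had been injected with Gfp-AAV, an adeno-associated virus that carries a fluorescent protein gene. In the other group, labelled Rspo2-AAV (numbers 1, 2, 4, 5, 6 and 7), the virus carried Rspo2, which encodes R-spondin 2, a secreted protein that strengthens Wnt signalling. The age, sex and diet of the mice, the viral dose, the time after injection and the promoter of the vector were not given in the sources used here. Whether each library stands for its own animal is not stated, and the p-values then measure only the spread among these 12 libraries, which may be technical.

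Solute carriers are membrane proteins that move small molecules across the cell surface or the membranes of organelles, mostly by coupling to an ion gradient, by exchange or by facilitated diffusion. Families are defined by sequence, and one family can carry very different substrates. Hepatocytes, the main cells of the liver, use them to take up amino acids, drugs, bile acids, vitamins, metals and hormones from portal blood and to release sugars and ketone bodies. In a bulk tissue sample, fewer cells of a type and less RNA per cell cannot be told apart.

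The virus gene followed the labels. Rspo2 was listed at 0 in all 6 control libraries and lay between 49.9 and 573 FPKM in the 6 Rspo2-AAV libraries. It was lowest in Rspo2-AAV 2 (49.9 FPKM) and Rspo2-AAV 1 (122 FPKM), and numbers 4 to 7 held 265 to 573 FPKM. Recovered library totals ran from 14295644 to 22195576 reads, of which the members took 0.85% to 1.31%. The tissue label was checked against 6 hepatocyte genes (Alb, Ttr, Apoa1, Serpina1c, Ahsg and Fgb), which summed to 26285 to 50648 FPKM in controls and 21066 to 45248 FPKM in Rspo2-AAV libraries, and none of the 6 was called. Some libraries stood apart. Rspo2-AAV 4 and 5 held RNA of pancreatic acinar genes: 10 such markers (Prss2, Cela1 and others) took 5.94% of the reads of Rspo2-AAV 4 and 0.533% of those of Rspo2-AAV 5, against 0.0615% in Rspo2-AAV 6, 0.00628% in Rspo2-AAV 7 and 0.0034% or less elsewhere. Xist, made from the inactive X chromosome of female cells, reached 42.0 FPKM in Control 3, with 28.0 FPKM in Rspo2-AAV 1 and 5.57 FPKM in Rspo2-AAV 2. The other 9 libraries held less than 1 FPKM of it. Among markers of other cell types, 3 of 5 erythroid genes were called higher, beside 2.55% of all tested genes. Called lower were 2 of 6 Kupffer cell and macrophage genes (Clec4f and Vsig4) and 2 of 6 stellate cell genes (Dcn and Lrat), beside 2.65%. The median log2 change was 2.43 in the erythroid list, -0.99 in the Kupffer cell and macrophage list and -0.69 in the stellate cell list. The part of these shifts in the results below was not tested. No member of the cholangiocyte (0 of 4 tested), endothelial (0 of 6), neutrophil (0 of 3), lymphocyte (0 of 3), adipocyte (0 of 1) or acinar (0 of 10) lists was called.

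Changes were estimated with limma on log2(FPKM + 0.5), a scale that understates changes of genes with low values, over all 13447 genes whose mean reached 0.5 FPKM. A gene was called at an adjusted p under 0.05 (Benjamini-Hochberg over all tested genes), and a log2 change is Rspo2-AAV minus Control. Most carriers were not called. Of the 149 members, 13 (8.72%) were called, beside 5.2% of all tested genes. The 8 called higher (5.37%, against 2.55% of all tested genes) were Slc39a5, Slc1a4, Slc16a11, Slc16a10, Slc19a2, Slc43a1, Slc29a1 and Slc6a12. The 5 called lower (3.36%, against 2.65%) included Slc22a7, Slc17a8, Slc8b1 and Slc2a5. The substrates of the genes named range over zinc, neutral and aromatic amino acids, thiamine, nucleosides, betaine, organic anions and fructose. A change of at least 2-fold on the fitted scale was seen in 8 of the 13, 4 higher and 4 lower.

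Some of these members reached the mean of 1 FPKM through 1 group only and so had to differ. Slc39a5 had a control mean under 1 FPKM, and Slc17a8, Slc2a5 and Slc16a9 an Rspo2-AAV mean under 1 FPKM. Among the 145 members with both group means at or above 1 FPKM, 7 were called higher and 3 lower (6.9%). This lies nearer to the 5.2% of all tested genes, but those were not held to the same limit on both groups. FPKM values of the groups did not overlap for 10 members (6.71%), against 3.24% of all tested genes without that limit, and for 8 of the 145 (5.52%). Of the 10, 8 were called. The others, named after their values were seen, were Slc35f6 (log2 change -0.27, adjusted p = 0.0787) and Slc17a1 (0.58, adjusted p = 0.0571). The log2 change was above 0 in 52 members and below 0 in 97, with a median of -0.08 beside 0.00 over all tested genes. The summed FPKM of the members was 2590 ± 125 in controls and 2639 ± 211 in Rspo2-AAV libraries (SD, n = 6 each), a difference smaller than the spread.

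**Figure D1:**
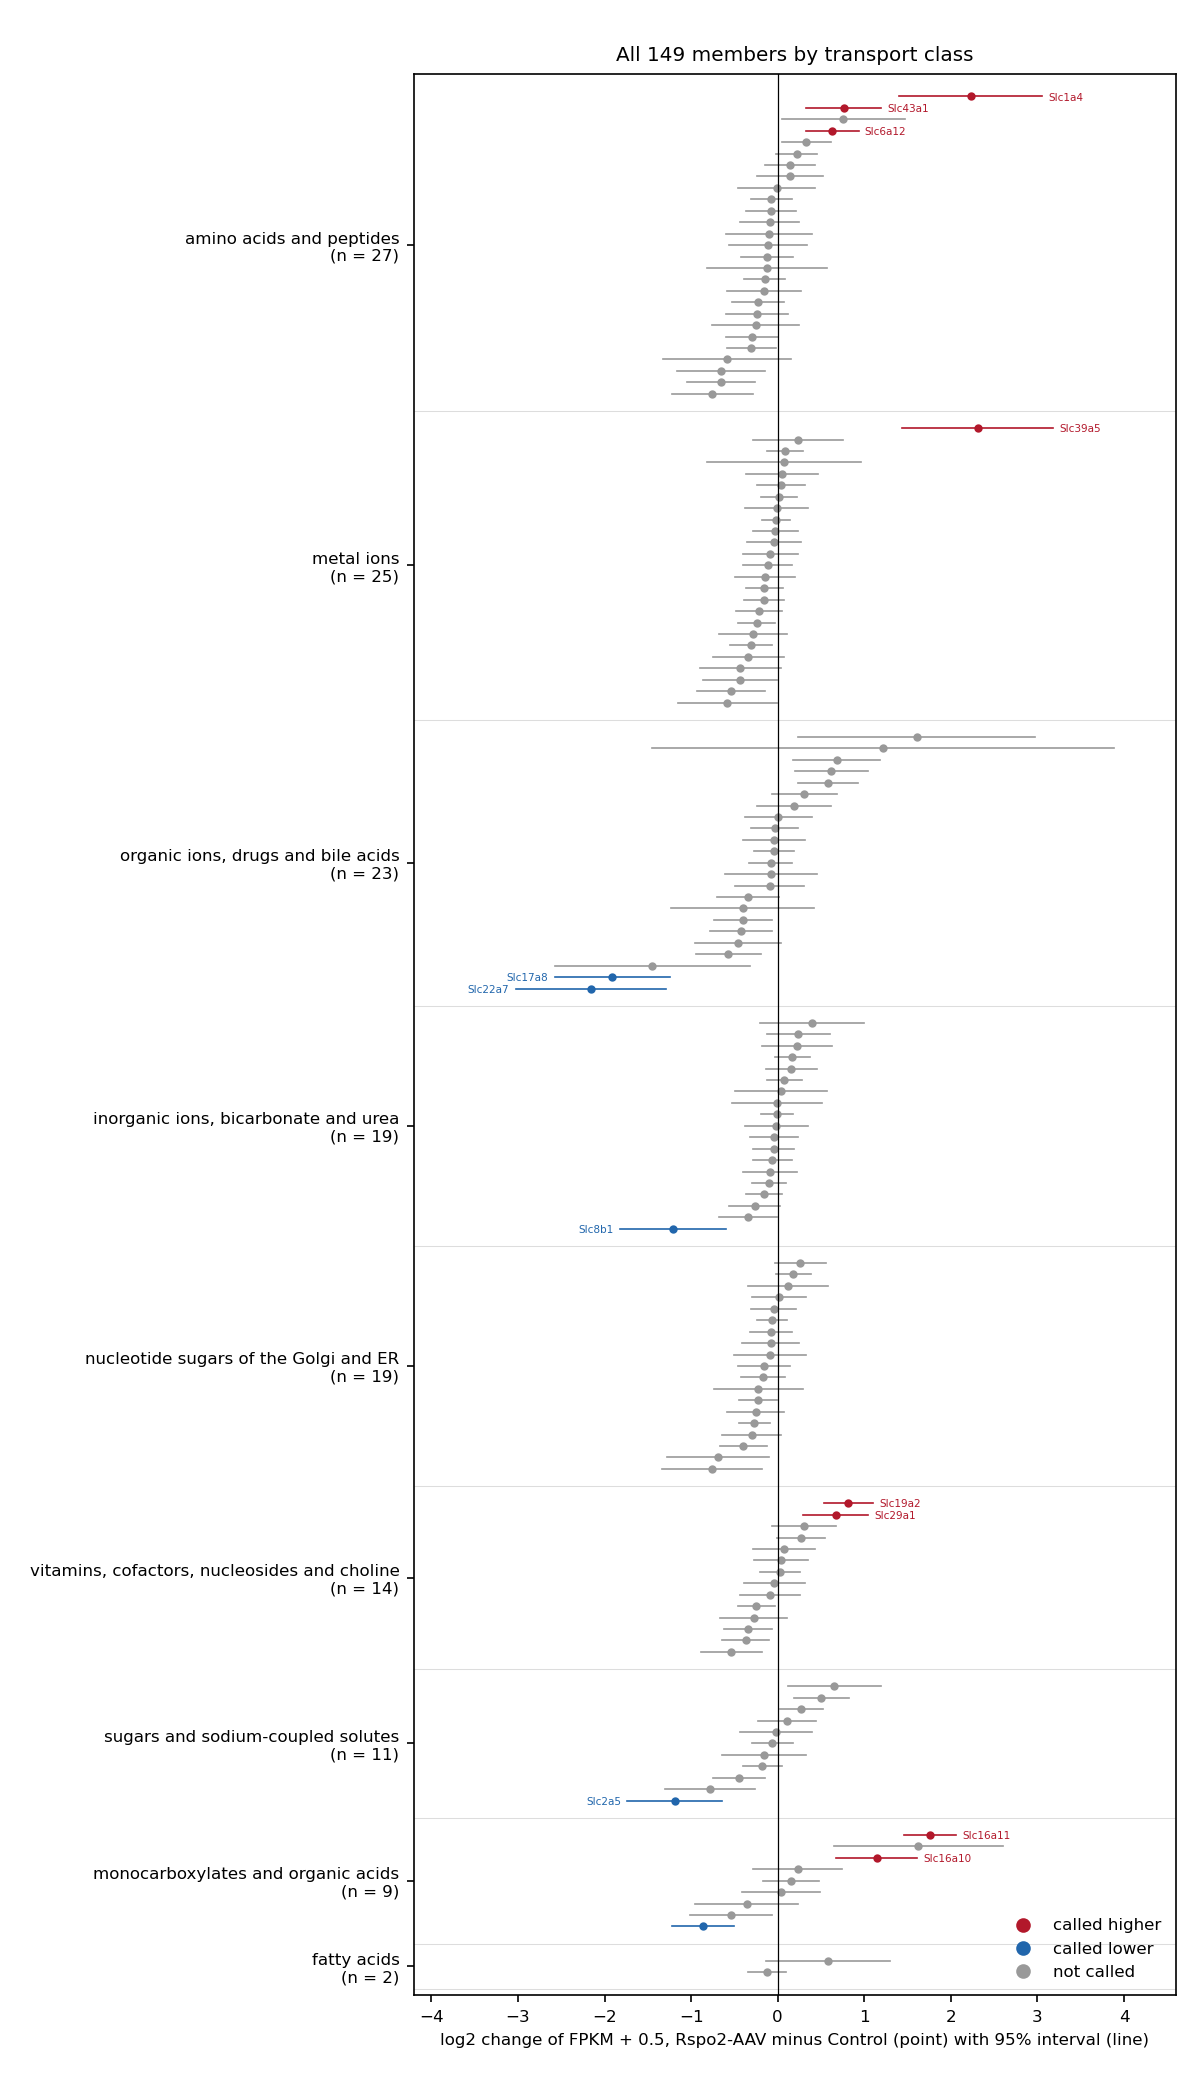
Log2 change of FPKM + 0.5 (Rspo2-AAV minus Control, horizontal axis) of each of the 149 members, grouped by transport class, as a point with its 95% interval from limma. Red marks the 8 members called higher, blue the 5 called lower and grey the 136 not called. The called members are spread over 7 of the 9 classes, and most grey intervals lie close to 0.

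The RefSeq promoter table (GRCm38.p6) held windows for 114 of the 149 members and for 10 of the 13 called. Below are the 250 bases upstream of the annotated start site for the matched called members with the 4 largest log2 changes in either direction, 5′ to 3′ on the gene's strand, shown so that their base content can be set beside the values that follow. Capitals mark every CG dinucleotide, the site of DNA methylation, which is dense in promoters of the CpG island type. The windows are chr10:128401225-128401474 (minus strand) for Slc39a5, chr11:20332714-20332963 (minus strand) for Slc1a4, chr10:89621250-89621499 (minus strand) for Slc17a8 and chr11:70213660-70213909 (plus strand) for Slc16a11. The start site is that of RefSeq. For Slc16a11 it (70213910) and the window lie inside the gene as deposited (70212752 to 70216417), so this window is upstream of the RefSeq start only.
Slc39a5: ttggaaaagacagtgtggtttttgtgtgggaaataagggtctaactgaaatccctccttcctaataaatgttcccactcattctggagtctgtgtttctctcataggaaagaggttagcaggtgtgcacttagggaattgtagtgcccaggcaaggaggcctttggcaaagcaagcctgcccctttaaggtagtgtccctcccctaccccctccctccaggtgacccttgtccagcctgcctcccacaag
Slc1a4: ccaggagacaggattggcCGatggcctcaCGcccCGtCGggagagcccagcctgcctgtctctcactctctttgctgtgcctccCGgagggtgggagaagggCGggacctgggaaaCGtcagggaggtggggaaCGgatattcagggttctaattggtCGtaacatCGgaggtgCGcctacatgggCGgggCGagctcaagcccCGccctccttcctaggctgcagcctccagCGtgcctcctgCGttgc
Slc17a8: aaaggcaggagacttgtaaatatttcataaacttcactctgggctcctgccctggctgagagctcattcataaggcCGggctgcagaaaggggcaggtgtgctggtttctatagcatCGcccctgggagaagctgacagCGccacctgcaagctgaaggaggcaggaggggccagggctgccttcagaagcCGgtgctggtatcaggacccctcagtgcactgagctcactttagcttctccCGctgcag
Slc16a11: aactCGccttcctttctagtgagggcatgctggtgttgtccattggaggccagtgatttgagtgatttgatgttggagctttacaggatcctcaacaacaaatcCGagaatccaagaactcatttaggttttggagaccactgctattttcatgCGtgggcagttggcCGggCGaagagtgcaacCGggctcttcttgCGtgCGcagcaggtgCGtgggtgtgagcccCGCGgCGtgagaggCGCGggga
The upstream sequence of Slc39a5 holds 0 CG and that of Slc17a8 holds 5, whereas Slc16a11 has 14 and Slc1a4 has 16. Over all 32851 windows the median was 6, with 7.87% at 0 and 29.4% at 14 or more. Of the 3 genes called higher here, 1 had no CG and the others had more CG than most windows.

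Short binding words of 8 factors or elements were searched on both strands in the 300-base windows, which add 50 bases after the start site. The words were picked with results of these data known, and a match is only a match of letters. The words CTTTGAT or CTTTGTT, bound by TCF/LEF, the factors through which Wnt signals act on DNA, were in 9.33% of all windows, in 7 of 163 member windows (4.29%) and in 0 of 23 windows of called members. The CARE word TGATGNAA, bound by Atf4 with its partners, was in 3.97% of all windows and in 7 member windows (4.29%). Among windows of called members it was in 1 of 23, that of Slc1a4. That site spans bases -4 to 4 around the start site of Slc1a4 within chr11:20332699-20332728 (minus strand), shown here with the word, on the opposite strand, in capitals.
Slc1a4 site: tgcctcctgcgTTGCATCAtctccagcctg
The antioxidant-element word TGACNNNGC was in 12.4% of all windows, in 31 member windows (19.0%) and in 5 of 23 windows of called members. Those 5 windows belong to Slc17a8, Slc29a1, Slc39a5 and Slc43a1, of which 3 were called higher and 1 lower. The word TATAAA was in 13.6% of all windows, in 12 member windows (7.36%) and in 1 of 23 windows of called members, that of Slc43a1. HNF4 (CAAAGTCCA, whose first bases are shared with the reverse complement of the TCF/LEF words), HNF1, NF1 and SREBP (TCACCCCAC) words were each in 0.551% or fewer of all windows and in 0 windows of called members.

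Carriers of amino acids and peptides formed the largest class, with 27 members, of which 3 were called higher, 0 lower and 24 not called. The median log2 change of the class was -0.11, near the -0.08 of all members, with 19 of the 27 changes below 0. Slc1a4 (ASCT1) exchanges alanine, serine, cysteine and threonine across the cell membrane. In controls it lay at 0.725 FPKM at the lowest, 2.17 at the median and 2.73 at the highest, and in Rspo2-AAV libraries at 4.73, 12.3 and 20.6. Every Rspo2-AAV library was above every control, and the group itself was spread out, with numbers 5, 6 and 7 above 16 FPKM and numbers 1, 2 and 4 at 8.1 or less. Its mean was 1.94 ± 0.80 FPKM in controls and 12.1 ± 6.94 in Rspo2-AAV libraries (SD, n = 6), a log2 change of 2.23 ± 0.38 (SE, adjusted p = 0.00702, limma).

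Slc6a12 (BGT1) takes up the osmolyte betaine and GABA, and is abundant in hepatocytes. Its lowest, median and highest FPKM were 17.6, 25.6 and 31.2 in controls and 31.2, 41.0 and 44.1 in Rspo2-AAV libraries. The groups met at 31.2 FPKM, where Control 1 lay just under Rspo2-AAV 1. Means of 25.6 ± 4.83 and 39.6 ± 4.77 FPKM gave a log2 change of 0.63 ± 0.14 (adjusted p = 0.0238). Slc6a13 (GAT2), a related carrier gene that ends 5342 bases upstream on chromosome 6, was not called, with a log2 change of -0.30 (adjusted p = 0.234). Slc43a1 (LAT3), a sodium-independent carrier of leucine and other large neutral amino acids, was low in both groups. It ranged from 1.09 to 2.39 FPKM (median 1.44) in controls and from 2.11 to 4.43 FPKM (median 2.85) in Rspo2-AAV libraries, so the groups overlapped through Control 1. Its log2 change was 0.76 ± 0.20, close to the threshold (adjusted p = 0.046).

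The 2 most abundant amino acid carriers were not called. Slc38a3 (SNAT3), which moves glutamine in and out of hepatocytes, had the highest level of all members, from 254 to 399 FPKM (median 299) in controls and from 250 to 455 FPKM (median 337) in Rspo2-AAV libraries. Slc38a4 (SNAT4), a sodium-coupled carrier of neutral and cationic amino acids, ranged from 212 to 323 FPKM (median 232) in controls and from 170 to 255 FPKM (median 212) in Rspo2-AAV libraries. The 95% interval of the log2 change was -0.24 to 0.53 for Slc38a3 and -0.53 to 0.07 for Slc38a4, so a change of 2-fold lay outside both. Among 15 tested partner and regulator genes 1 was called, beside 5.2% of all tested genes. It was Atf4, the transcription factor that raises many amino acid carriers under amino acid shortage. Atf4 rose from 40.2 ± 6.58 to 68.0 ± 14.8 FPKM (log2 change 0.74 ± 0.16, adjusted p = 0.0223). Its groups overlapped, with Rspo2-AAV 4 at 47.2 FPKM under Control 4 at 48.9.

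The Slc16 family, named for monocarboxylates such as lactate and pyruvate, had 9 members, of which 2 were called higher, 1 lower and 6 not called. Slc16a11 (MCT11), a monocarboxylate carrier of the liver, had the smallest adjusted p of all members. It lay at 2.86, 4.13 and 5.07 FPKM (lowest, median, highest) in controls and at 12.5, 14.2 and 17.1 FPKM in Rspo2-AAV libraries. The lowest Rspo2-AAV library was more than 2-fold above the highest control. Means of 3.94 ± 0.89 and 14.4 ± 1.74 FPKM gave a log2 change of 1.76 ± 0.14 (adjusted p = 7.28e-05).

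Slc16a10 (TAT1), of the same family, lets aromatic amino acids rather than monocarboxylates leave or enter cells. It lay at 11.5, 21.2 and 29.0 FPKM in controls and at 26.5, 48.3 and 54.5 FPKM in Rspo2-AAV libraries (lowest, median, highest). Rspo2-AAV 2, at 26.5 FPKM, fell among the controls, and the other 5 libraries were at 46.2 FPKM or more. This gave a log2 change of 1.14 ± 0.22 (adjusted p = 0.0103).

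Among the 6 not called, Slc16a5 (named after its values were seen) had the widest spread. It ranged from 2.72 to 22.8 FPKM in controls, where Control 3 was highest, and from 10.8 to 36.4 FPKM in Rspo2-AAV libraries, with a log2 change of 1.63 ± 0.45 (adjusted p = 0.0547). Slc16a1 (MCT1), the general lactate carrier, had a log2 change of 0.15 with a 95% interval of -0.17 to 0.47.

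**Figure D2:**
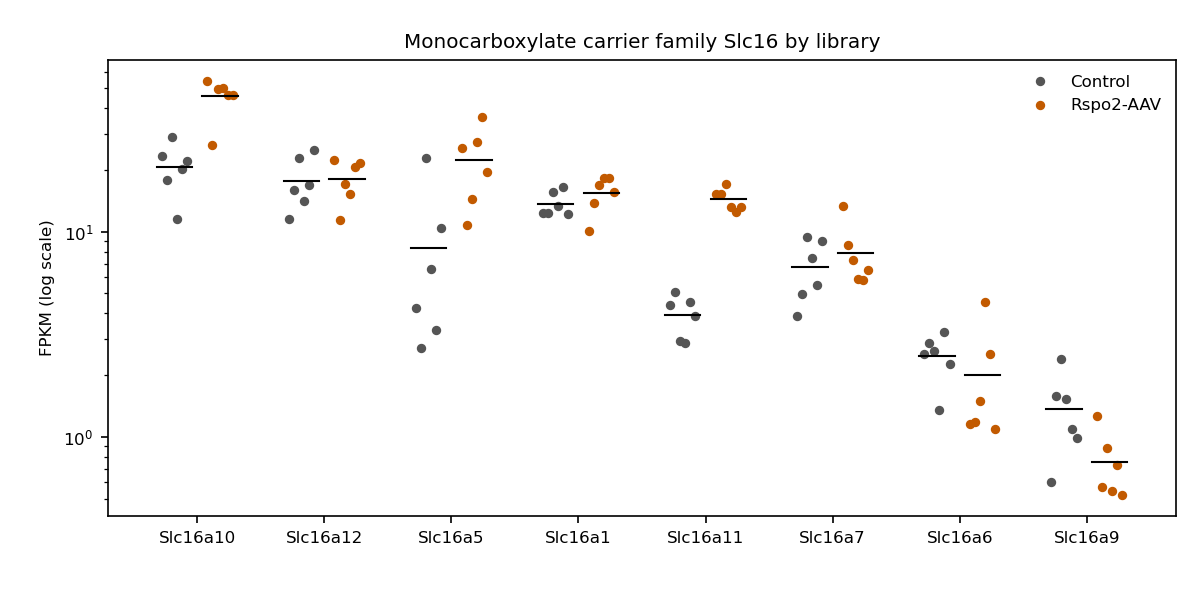
FPKM (log axis) of 8 of the 9 Slc16 members in each library, grey for Control and orange for Rspo2-AAV, with a bar at the mean of each group (n = 6). Slc16a11 separates the groups fully, and Slc16a10 does so apart from Rspo2-AAV 2.

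Of 25 carriers of metal ions, 1 was called, and it was higher. Slc39a5 (ZIP5) carries zinc into cells and is known from intestine, pancreas and liver. It lay at 0.488, 0.572 and 1.18 FPKM in controls and at 2.28, 4.07 and 20.9 FPKM in Rspo2-AAV libraries (lowest, median, highest). All 6 Rspo2-AAV libraries were above the controls, and Rspo2-AAV 4 was 2.71-fold above the next. Slc39a5 had a log2 change of 2.31 ± 0.40 (adjusted p = 0.0072), from means of 0.682 ± 0.268 and 7.02 ± 7.04 FPKM. The highest value stood in the library with the most acinar RNA. Rspo2-AAV 1 and 2, whose acinar share was no higher than that of the controls, had 7.69 and 4.77 FPKM, and the log2 change without Rspo2-AAV 4 and 5 was 1.98 (adjusted p = 0.0127). That fit keeps Rspo2-AAV 6 and 7, whose acinar shares (0.0615% and 0.00628% of reads) were above every control. The part of acinar RNA in the values of Slc39a5 was not tested. Slc39a5 also reached the level of the members through the Rspo2-AAV group only. The other 10 Slc39 genes and all 7 Slc30 zinc exporters were not called. Each of the 7 Slc30 log2 changes was below 0, from -0.43 (Slc30a10) to -0.02 (Slc30a9), with a median of -0.11. Slc31a1 (CTR1), the copper importer and the most abundant of the class, averaged 44.4 ± 2.86 and 37.6 ± 4.25 FPKM without a call (adjusted p = 0.173). Slc39a1 (ZIP1), a zinc importer, had means of 40.2 ± 5.61 and 35.8 ± 3.02 FPKM (adjusted p = 0.441).

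The class of organic ion, drug and bile acid carriers had 23 members, of which 0 were called higher and 2 lower. Slc22a7 (OAT2) takes up organic anions such as nucleotides, prostaglandins and drugs at the blood side of hepatocytes. It lay at 6.45, 15.9 and 33.0 FPKM in controls and at 1.23, 3.05 and 5.92 FPKM in Rspo2-AAV libraries (lowest, median, highest). The groups did not overlap, although controls were spread, with numbers 3 and 4 under 8 FPKM and numbers 1 and 5 above 24. The means were 17.1 ± 10.2 and 3.18 ± 1.62 FPKM, and the log2 change was -2.16 ± 0.40 (adjusted p = 0.00909). Slc17a8 (VGLUT3), known as a vesicular glutamate carrier of neurons, lay at 1.95, 3.81 and 6.15 FPKM in controls and at 0.153, 0.602 and 1.83 FPKM in Rspo2-AAV libraries. Its highest Rspo2-AAV library, number 2, lay just under its lowest control, number 1. The log2 change was -1.91 ± 0.31 (adjusted p = 0.00484).

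Slc22a18, a carrier-like gene of an imprinted region, was not called, with means of 74.1 ± 19.6 and 83.7 ± 16.7 FPKM (adjusted p = 0.635).

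Several Slc22 genes, named after their values were seen, differed more between libraries than between groups. Slc22a26 reached 47.6 FPKM in Rspo2-AAV 1, 39.3 FPKM in Control 3 and 9.85 FPKM in Rspo2-AAV 2, and no other library held more than 0.959 FPKM. Those 3 libraries are the ones with Xist above 1 FPKM. Slc22a27 was likewise highest there, at 11.4 FPKM in Rspo2-AAV 1, 7.63 FPKM in Control 3 and 3.12 FPKM in Rspo2-AAV 2, while Slc22a28 was lowest in Control 3 (0.656 FPKM) and Rspo2-AAV 1 (0.119 FPKM). The adjusted p was 0.622 for Slc22a26, 0.161 for Slc22a27 and 0.127 for Slc22a28. They lie side by side on chromosome 19 and are similar in sequence, so reads may be shared among them.

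**Figure D3:**
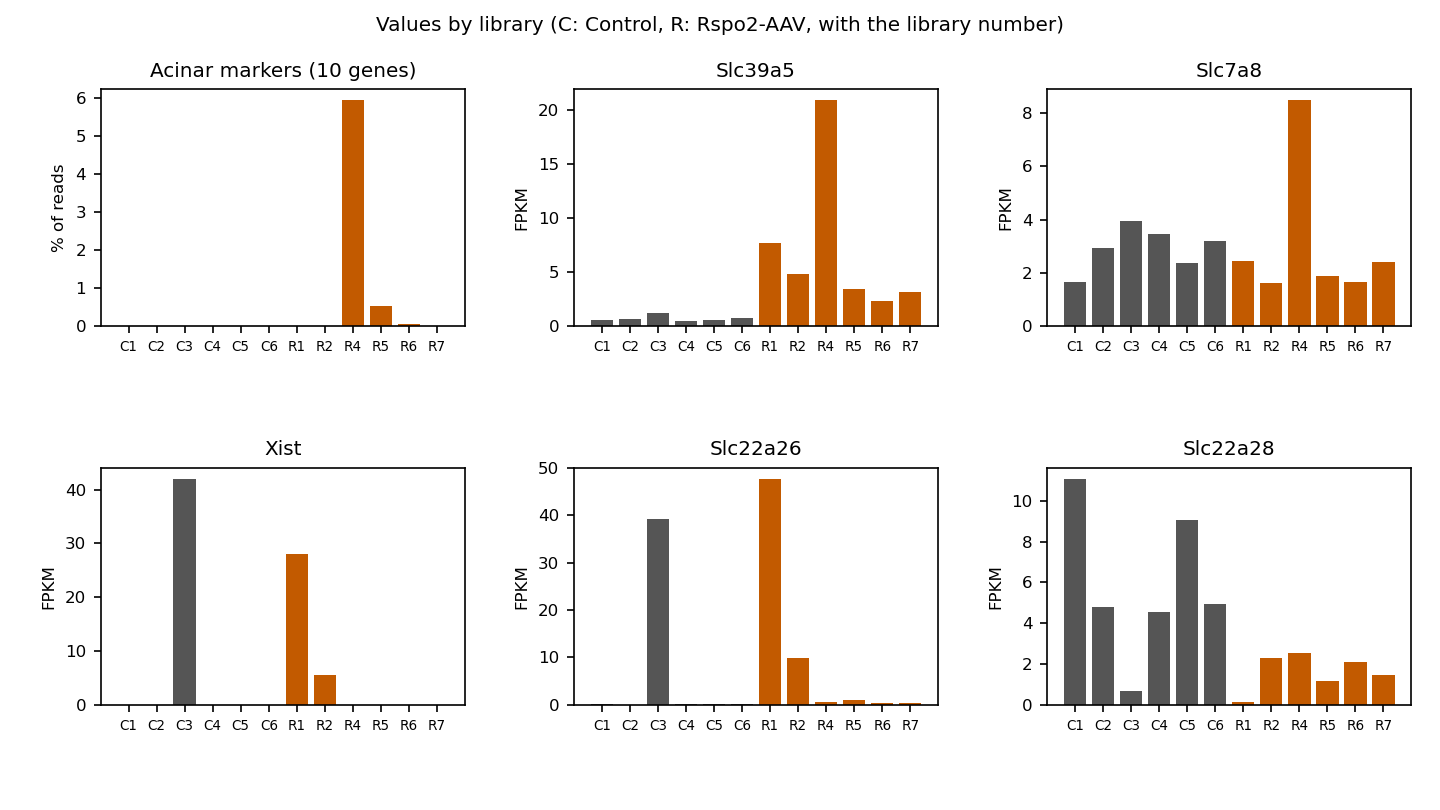
Values in each library (C for Control, R for Rspo2-AAV, with the library number): the share of reads in 10 acinar markers, and FPKM of Slc39a5, Slc7a8, Xist, Slc22a26 and Slc22a28. Rspo2-AAV 4 has the highest acinar share (5.94%), Slc39a5 (20.9 FPKM) and Slc7a8 (8.48 FPKM). Slc22a26 is above 1 FPKM only in the 3 libraries with Xist above 1 FPKM.

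Among 14 carriers of vitamins, cofactors, nucleosides and choline, 2 were called higher and 0 lower. Slc19a2 (THTR1) imports thiamine, vitamin B1. It lay at 19.7, 23.0 and 27.7 FPKM in controls and at 33.8, 40.5 and 52.8 FPKM in Rspo2-AAV libraries (lowest, median, highest), with no overlap. The log2 change was 0.82 ± 0.13 (adjusted p = 0.00484), from means of 23.0 ± 2.89 and 41.2 ± 7.62 FPKM. Slc29a1 (ENT1), the equilibrative carrier of adenosine and other nucleosides, was the most abundant called member, at 27.5, 45.8 and 63.1 FPKM in controls and at 64.9, 74.1 and 77.8 FPKM in Rspo2-AAV libraries. The groups did not overlap but lay close, with Control 3 and Control 1 above 60 FPKM, and the log2 change was 0.67 ± 0.17 (adjusted p = 0.0456). The gene overlaps Gm17080 on the other strand (mean 5.21 FPKM, log2 change 1.04, not called). Whether counting used strand is not known from the sources used here, so reads of the pair cannot be told apart.

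Of 11 carriers of sugars and sodium-coupled solutes, 1 was called, and it was lower. Slc2a5 (GLUT5), the fructose carrier best known from intestine, lay at 1.21, 2.83 and 3.90 FPKM in controls and at 0.443, 0.873 and 1.36 FPKM in Rspo2-AAV libraries (lowest, median, highest). The groups overlapped through Control 3 at 1.21 FPKM, below Rspo2-AAV 2 and 7, and the log2 change was -1.19 ± 0.25 (adjusted p = 0.0181). Slc37a4 (G6PT), which brings glucose 6-phosphate into the endoplasmic reticulum for glucose release, was the most abundant of the class. Its range was 44.5 to 115 FPKM in controls and 55.4 to 101 FPKM in Rspo2-AAV libraries (adjusted p = 0.737). Slc45a3, a sugar carrier-like protein, had means of 13.4 ± 3.83 and 13.1 ± 3.00 FPKM (adjusted p = 0.964).

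The 19 carriers of inorganic ions, bicarbonate and urea included 1 called member, which was lower. Slc8b1 (NCLX) lets calcium leave mitochondria in exchange for sodium. It lay at 15.2, 28.1 and 30.6 FPKM in controls and at 6.45, 9.26 and 21.8 FPKM in Rspo2-AAV libraries (lowest, median, highest). Rspo2-AAV 2, at 21.8 FPKM, was above Control 5 and 6, and the other Rspo2-AAV libraries were below every control. The log2 change was -1.21 ± 0.28 (adjusted p = 0.0297), from means of 24.8 ± 6.83 and 11.0 ± 5.77 FPKM. Slc9a3r1 (NHERF1), a scaffold protein that carries nothing itself and is a member by its symbol, had means of 122 ± 29.9 and 139 ± 21.3 FPKM (adjusted p = 0.534). Slc9a3r2, Slc7a6os and Slc4a1ap are likewise members by symbol only. Slc26a1 (SAT1), a sulfate and oxalate exchanger, ranged from 34.1 to 56.1 FPKM in controls and from 25.1 to 80.9 FPKM in Rspo2-AAV libraries (adjusted p = 0.948).

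No call was made in the remaining classes, which hold 21 members. The 19 Slc35 genes, mostly nucleotide sugar carriers that supply glycosylation in the Golgi and endoplasmic reticulum, had a median log2 change of -0.16, with 15 of 19 below 0. Their summed level was 194 ± 16.5 FPKM in controls and 170 ± 8.19 in Rspo2-AAV libraries (SD, n = 6), with ranges of 179 to 222 and 156 to 180 FPKM that overlapped slightly. Slc35b1, a carrier of the endoplasmic reticulum, ranged from 13.9 to 54.9 FPKM in controls and from 22.1 to 26.7 FPKM in Rspo2-AAV libraries (adjusted p = 0.633). Slc35e1 had means of 16.2 ± 1.07 and 18.6 ± 5.74 FPKM (adjusted p = 0.802). The 2 fatty acid carriers that remained after the rule, Slc27a4 (FATP4) and Slc27a1 (FATP1), which link fatty acid uptake to coenzyme A, had log2 changes of -0.12 (adjusted p = 0.534) and 0.58 (adjusted p = 0.337). Slc27a1 was at 8.84 and 10.2 FPKM in Rspo2-AAV 1 and 2, at 6.43 FPKM in Rspo2-AAV 4 and at 2.22 to 2.96 FPKM in numbers 5 to 7, so values within the Rspo2-AAV group were widely spread.

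**Figure D4:**
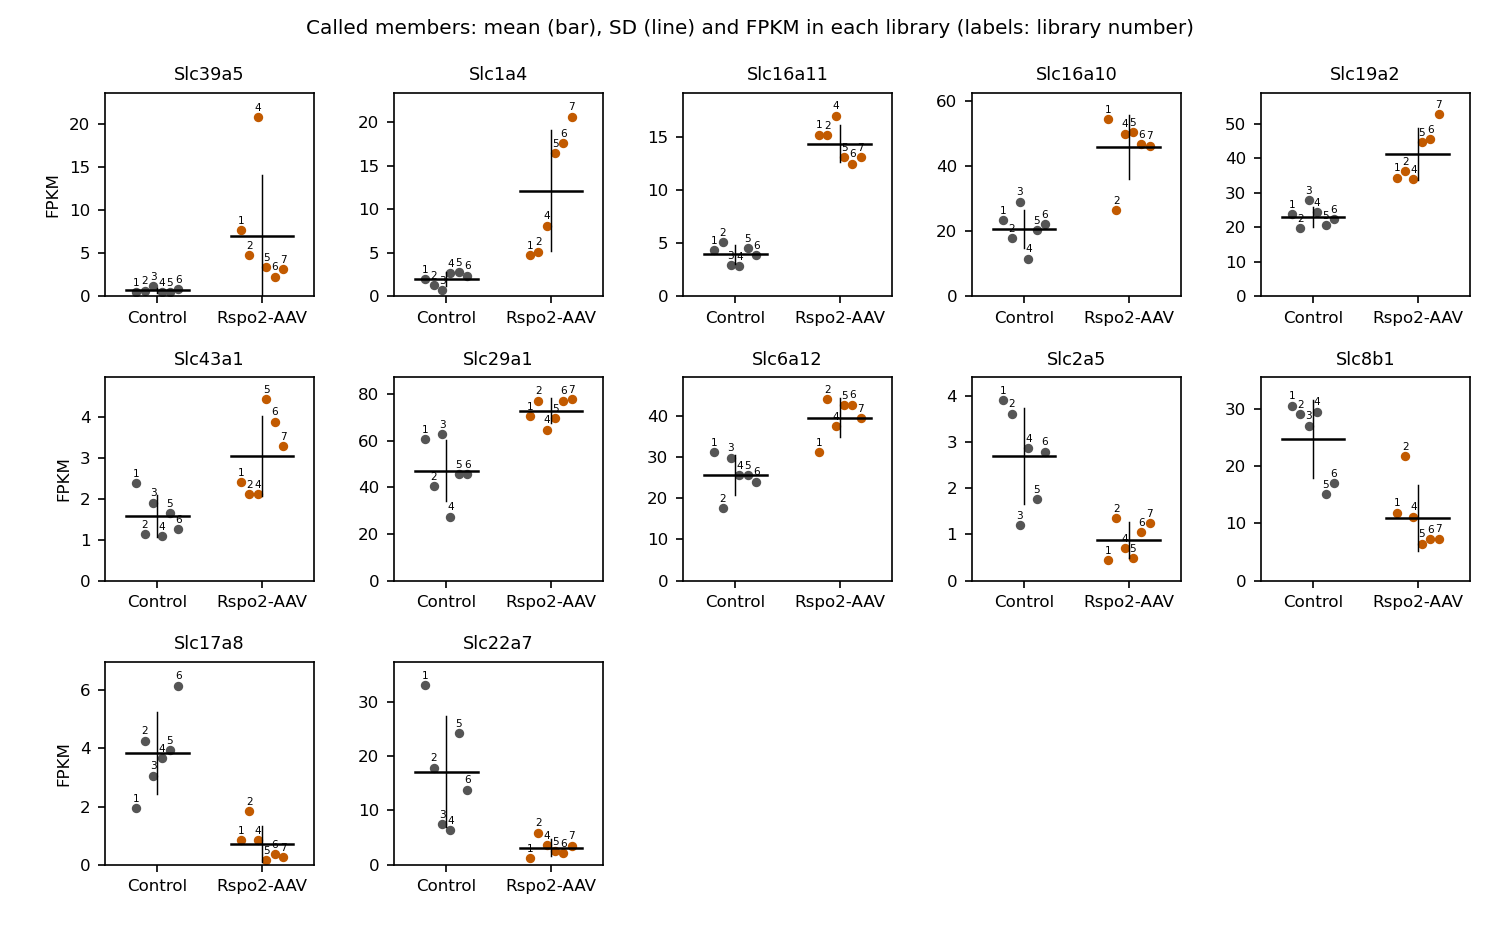
FPKM of 12 of the 13 called members in each library, with the library number above each point, a bar at the group mean and a line of 1 SD either side (n = 6 per group; the line of Slc39a5 is clipped at 0). Slc16a11, Slc19a2 and Slc1a4 show no overlap between groups, while Slc16a10 and Slc8b1 overlap through Rspo2-AAV 2.

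How far the calls rest on single libraries was checked by leaving out each in turn. The count of members called higher fell to 5 without Control 6, Rspo2-AAV 5 or Rspo2-AAV 6. In those fits the count over all tested genes fell from 343 to 177, 172 and 162. Members called lower numbered 9 without Control 3 and 3 without Control 2. There the count over all tested genes went from 356 to 492 and 183. Slc16a11, Slc1a4, Slc39a5, Slc19a2, Slc16a10, Slc17a8 and Slc22a7 were among those that kept their call in all 12 fits. Slc29a1 lost its call in 10 of 12 fits (all but those without Control 1 or 3), with adjusted p up to 0.105, and a log2 change of 0.52 to 0.76. Slc43a1 lost it in 7 (without Control 2, 4, 5 or 6 or Rspo2-AAV 5, 6 or 7), with adjusted p up to 0.109. Slc8b1 lost it in 5 (without Control 2 or 4 or Rspo2-AAV 5, 6 or 7; up to 0.0739), Slc6a12 in 3 (without Control 6 or Rspo2-AAV 5 or 6; up to 0.0617) and Slc2a5 in 1 (without Control 2; 0.0502). Rescaling each library to TPM, which with the same minimum mean tested 15770 genes, ended the calls of Slc29a1 (log2 change 0.68, adjusted p = 0.134), Slc16a10 (1.16, 0.0628) and Slc43a1 (0.87, 0.104), without smaller log2 changes. Over the 13447 genes tested before, a fit added after seeing the data, TPM gave adjusted p of 0.128, 0.0580 and 0.0979 for these genes. Testing all genes without a filter on low values ended those of Slc29a1 (adjusted p = 0.0863), Slc8b1 (0.0694) and Slc43a1 (0.105).

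Without Rspo2-AAV 4 and 5, the libraries with the most acinar RNA, 4 of 149 members were called higher and 3 lower. Over all 13447 tested genes, 117 (0.87%) were called higher and 120 (0.892%) lower. Member counts in this and the other subsets include members that reached 1 FPKM through 1 group only. The members called included Slc39a5, Slc1a4, Slc16a11, Slc19a2, Slc22a7 and Slc17a8. The log2 changes of Slc16a10 (1.06, adjusted p = 0.0707), Slc6a12 (0.62, 0.105), Slc29a1 (0.73, 0.119), Slc43a1 (0.73, 0.115), Slc8b1 (-1.10, 0.12) and Slc2a5 (-1.04, 0.106) were of like size but not called. Without the 3 libraries with Xist above 1 FPKM, more was called: 16 members higher and 11 lower, beside 6.0% and 6.75% of all tested genes. All 13 members called over 12 libraries were among these, and Slc16a5 (log2 change 2.13, adjusted p = 0.00636), Slc22a28 (-1.62, 0.00639) and Slc22a27 (1.71, 0.00557) joined them. Leaving out Control 3 alone was enough for these calls of Slc16a5 (1.98, adjusted p = 0.00715), Slc22a28 (-1.88, 0.0148) and Slc22a27 (2.17, 0.0109). Rspo2-AAV 1 and 2 also had the lowest Rspo2 of their group (122 and 49.9 FPKM). Xist and the level of Rspo2 therefore cannot be told apart in fits without both libraries. With numbers 4 to 7 only, 10 members were called higher and 13 lower, beside 6.34% and 6.92% of all tested genes, and Slc39a5 was not called there (2.32, adjusted p = 0.0577). With numbers 1 to 3 only (3 controls and 2 Rspo2-AAV libraries), 0 members and 0 of all genes were called by limma, while 13 members (8.72%) had an unadjusted p under 0.05, beside 955 of all tested genes (7.1%).

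The 149 members differed widely in level. Their mean FPKM ran from 1.05 to 322, with a median of 7.09. In all, 50 members were above 10 FPKM and 4 above 100 FPKM, among them Slc38a3, Slc38a4 and Slc9a3r1. The 3 most abundant members made up 31.9% of the summed FPKM of all members. Of the 13 called members, 8 lay above this median, and Slc29a1, at a mean of 60.1 FPKM, was the most abundant of the 13. Within groups, the coefficient of variation had a median of 20.2% in controls and 20.7% in Rspo2-AAV libraries. Of the 136 members not called, 117 had a 95% interval within 2-fold either way on the fitted scale and 76 within 1.5-fold. The other 19 reached past 2-fold and so were not measured well enough to exclude it. The scale understates changes at low values, so near 1 FPKM an interval within 2-fold does not exclude a 2-fold change of FPKM. Just inside the level of 1 FPKM were Slc16a9 (1.06 FPKM), Slc39a10 (1.06) and Slc38a6 (1.05), and just outside were Slc18a1 (0.996), Slc16a13 (0.983) and Slc10a7 (0.961).

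**Figure D5:**
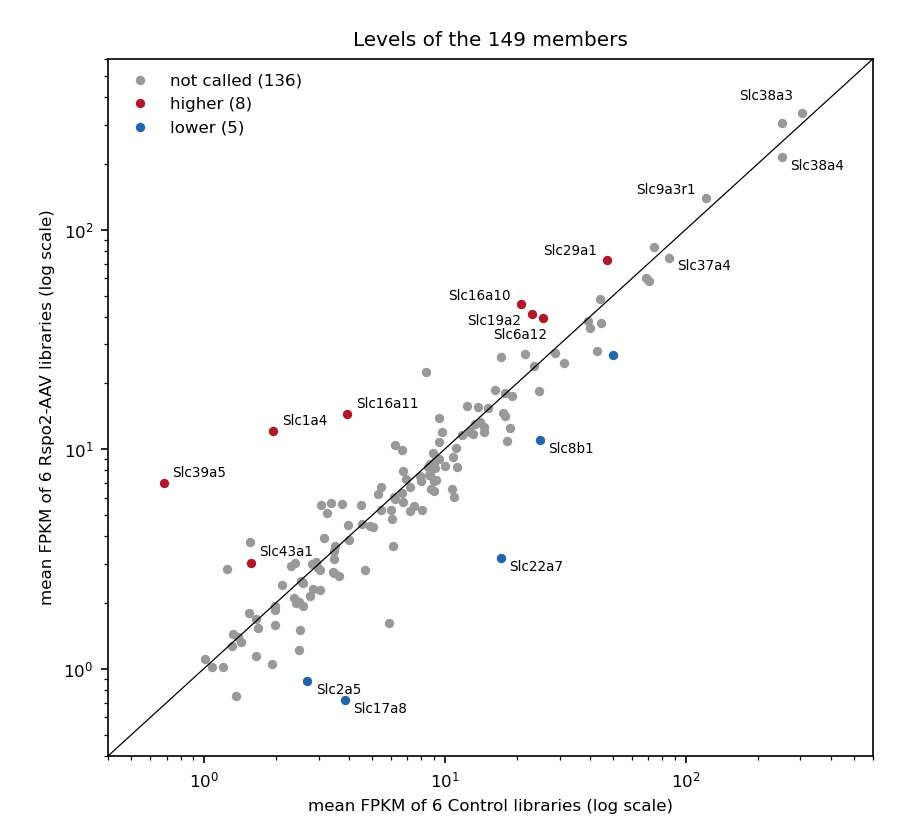
Mean FPKM of the 149 members in 6 Rspo2-AAV libraries (vertical, log axis) against 6 Control libraries (horizontal, log axis), with the line of equal levels. The abundant carriers Slc38a3 and Slc38a4 lie near the line, and the 8 members called higher (red) and 5 called lower (blue) are spread over levels up to a mean of 60.1 FPKM.

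There were 11 pairs of members within 100 kb of each other, of which 3 pairs held a called gene, and in 0 pairs were both called. Carriers outside the rule were counted with the same fit. Of 48 tested genes of the Slco, Abc and aquaporin families, 1 was called higher and 2 lower, beside 2.55% and 2.65% of all tested genes. Slco1a4, an organic anion uptake carrier, rose, with a log2 change of 2.93 ± 0.62 (adjusted p = 0.0181), although Control 3, at 29.4 FPKM, lay above 5 of the 6 Rspo2-AAV libraries. Aqp8, a water channel, fell by 1.67 on the log2 scale (adjusted p = 0.0465), and Abca8a, an ATP-driven carrier, fell by 1.07 (adjusted p = 0.0342). Of 40 tested Slc25 genes, 0 were called higher and 1 lower, beside the same shares of all tested genes. Of the 9 carriers set aside, Slc1a2 and Slc13a3 were called higher.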

How the data were processed

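Bulk RNA sequencing of 12 liver libraries (6 Control, 6 Rspo2-AAV) was analysed from 1 table. The submitters' processing notes name the aligner HISAT2 (2.0.5), the read counter featureCounts (1.5.0-p3), DESeq2 (1.20.0) and the build GRCm38 (mm10), without the role each had. The values are FPKM as the authors deposited them, beside the deposited gene length, which served only to recover whole reads (100.0% of positive values whole within 0.01 reads). The pseudocount was 0.5 FPKM and limma 3.58.1 in R 4.3.3 was used (lmFit, eBayes with trend). The precision comes from the spread between libraries, and the recovered reads of each member are PCR reads without molecular identifiers. The fit was tested on simulated data. Alternatives were other pseudocounts and filters, TPM scaling (also over the genes tested as reported, added after seeing the data), limma-voom on recovered reads, fits without single or several libraries, and fits with a number term or block. No negative binomial model was fitted.

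Members, transport classes, lists and tests were chosen with earlier results of these data known. Named genes were the called members with the largest changes and no overlap (up to 8 each way), up to 4 called members per class, the 2 most abundant members per class, those next to the level of 1 FPKM, and up to 3 called genes each from the lists of partners and other carriers. Values of 2 members are not reported here. Other genes were named after their values were seen. Classes group families by their usual substrate.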

Additional observations from a re-analysis of the deposited data

Results flagged for a closer look

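In 54 sets of 6 libraries (27 named members in each group), 4 held a library far from the other 5, by a gap of more than 0.625 of the whole range on the log2 scale (Dixon's 95% limit). Chance gives about 1 in 20 such sets. Slc9a3r1 was at 66.2 FPKM in Control 3, Slc22a18 at 52.2 FPKM in Rspo2-AAV 1, Slc16a10 at 26.5 FPKM in Rspo2-AAV 2 and Slc35e1 at 8.11 FPKM in Rspo2-AAV 2, each the lowest of its group. All 4 values stood in the libraries with Xist above 1 FPKM. Of these libraries, Rspo2-AAV 1 and 2 also had the lowest Rspo2 of their group. The part of either in these values was not tested.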

How the results depend on the processing

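As reported, 8 members were called higher and 5 lower, and 343 and 356 of all genes. Pseudocounts of 0.1 and 1, a filter at 1 FPKM and limma-voom also gave 8 and 5. Without a filter 195 and 216 of all genes were called. TPM scaling gave 5 members higher, and 200 and 191 of 15770 genes tested; over the 13447 genes tested as reported, a fit chosen after seeing the data, it gave 5 members higher, and 197 and 183 genes. Without Rspo2-AAV 4 and 5 there were 4 and 3 members, and 117 and 120 genes. Numbers 4 to 7 gave 13 members lower, and 853 and 931 genes, and numbers 1 to 3 gave 0 members and 0 genes either way. Without Control 3 and Rspo2-AAV 1 and 2 there were 16 and 11 members, and 807 and 908 genes. Leaving out 1 library gave 5 to 11 members higher and 3 to 9 lower, and 162 to 421 and 170 to 492 genes; the cause was not tested.

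Libraries with the same number correlated by -0.25 to 0.16, so no clear pairing by number was seen, which does not exclude one. Control 4 and Rspo2-AAV 4 correlated best with each other, at 0.08. With the number as a replicate block (numbers 1, 2, 4, 5 and 6), 6 members were higher and 4 lower, and 145 and 152 of all genes. Calls that ended in this limma fit included Slc22a7 (log2 change -2.39, adjusted p = 0.0526), Slc29a1 (0.74, 0.0790), Slc43a1 (0.79, 0.103) and Slc6a12 (0.68, 0.128). Newly called were Slc16a5 (1.99, 0.0198) and Slc35d2 (-1.07, 0.0447). Of the named members, 0 changed direction past the threshold in any alternative. Carriers near 1 FPKM rest on few reads, 30 to 169 per library for Slc16a9 and 73 to 226 for Slc38a6, and so do the libraries with low values of Slc17a8 (from 11 reads) and Slc39a5 (from 15).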

Other observations

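Carriers under the level of the members were tested in the same fit where their mean was at least 0.5 FPKM. Of 27 such genes, 4 were called higher and 0 lower (limma, adjusted p of 0.00484 to 0.0301), beside 2.55% and 2.65% of all tested genes. These 4 are named after their values were seen. Slc1a5 (ASCT2), an exchanger of glutamine and other neutral amino acids related to Slc1a4, ranged from 0.400 to 0.630 FPKM in controls and from 0.872 to 1.73 FPKM in Rspo2-AAV libraries. Slc16a13 (MCT13) had means of 0.591 ± 0.149 and 1.38 ± 0.281 FPKM (SD, n = 6), with no overlap, and lies next to Slc16a11 on chromosome 11. Slc13a5 (NaCT), the citrate importer of hepatocytes, had means of 0.418 ± 0.181 and 1.12 ± 0.395 FPKM, with groups that overlapped. Slc22a29 had means of 0.223 ± 0.175 and 0.798 ± 0.282 FPKM, and reads may be shared with its neighbours of the Slc22 family. Slc13a5 and Slc22a29 reach 0.5 FPKM through the Rspo2-AAV group only, so the count of 4 is a description. Slc7a8 and Slc7a5, amino acid exchangers among the members, were each highest in Rspo2-AAV 4, at 8.48 and 7.73 FPKM, 2.15-fold and 2.95-fold above the next library, and neither was called.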
